A study of Mus musculus with 28 samples.

Results

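The genes described here are 9 genes of the insulin and insulin-like growth factor (IGF) pathway: the ligand Igf1, the receptors Insr, Igf1r and Igf2r, the adaptors Irs1 and Irs2, and the downstream genes Pik3r1, Akt2 and Foxo1. They were chosen by symbol, with earlier results of these data known. Counts among them, set beside those of all genes, are therefore a description only. All 9 were found in both deposited gene tables, which list 15097 and 15054 genes with 14888 in common. The series measured total RNA of frontal cortex, 1 library from each of 28 C57Bl/6 males. In the chronic social stress cohort, 8 mice (CSS) were kept alone for 7 weeks and faced repeated social confrontations over the final 20 days, and 8 mice (CSS_control) served as controls. All 16 of these mice were 21 weeks old. In the type 2 diabetes cohort, 6 mice (T2D) were given 75 mg/kg streptozotocin, which kills pancreatic beta cells, with a high-fat diet (43.2% of kcal) for 21 weeks, and 6 mice were controls (T2D_control). These 12 mice were 30 or 31 weeks old. What the control conditions were is not given in the labels, isolation and confrontation cannot be told apart in CSS, and toxin and diet cannot be told apart in T2D. Each library came from its own mouse, so the spread within a group includes that between animals. RNA of this bulk tissue mixes all cell types, so fewer cells of a type and less RNA per cell cannot be told apart.

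Insulin and IGF1 bind receptor tyrosine kinases at the cell surface, encoded by Insr and Igf1r, which phosphorylate the docking proteins IRS1 and IRS2. These recruit PI3-kinase, whose lipid product activates the AKT kinases, and AKT holds FOXO transcription factors out of the nucleus. In the brain the pathway is known for roles in neuronal survival, synaptic plasticity and the control of food intake. In other tissues FOXO factors are known to raise transcription of Insr and Irs2 when insulin is low, so that part of the pathway feeds back on its own receptors and adaptors. Only RNA was measured, not the phosphorylation that carries the signal.

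In the socially stressed mice 3 of the 9 genes rose, namely Irs2, Igf1r and Igf2r, by 1.28-fold, 1.20-fold and 1.13-fold. None fell, and Irs1 and Insr, with log2 changes of 0.23 ± 0.07 and 0.22 ± 0.07 (SE), missed the threshold on the adjusted p of 0.05. Of all 15097 genes tested in CSS against CSS_control, 318 were called higher (2.11%) and 365 lower (2.42%), in all 683 or 4.52%. In T2D against T2D_control 0 of the 9 genes passed in edgeR, 0 had an unadjusted p under 0.05, and DESeq2 called 0. There 0 of 15054 genes were called by edgeR, which is 0%, while 879 had an unadjusted p under 0.05 (5.84%) and DESeq2 called 4. In every library of all 4 groups each of the 9 genes was detected, and for each gene the library values of treated and control mice overlapped in both cohorts. Groups that do not overlap were found for 0.609% of genes in the CSS cohort and 0.146% in the T2D cohort.

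**Figure D1:**
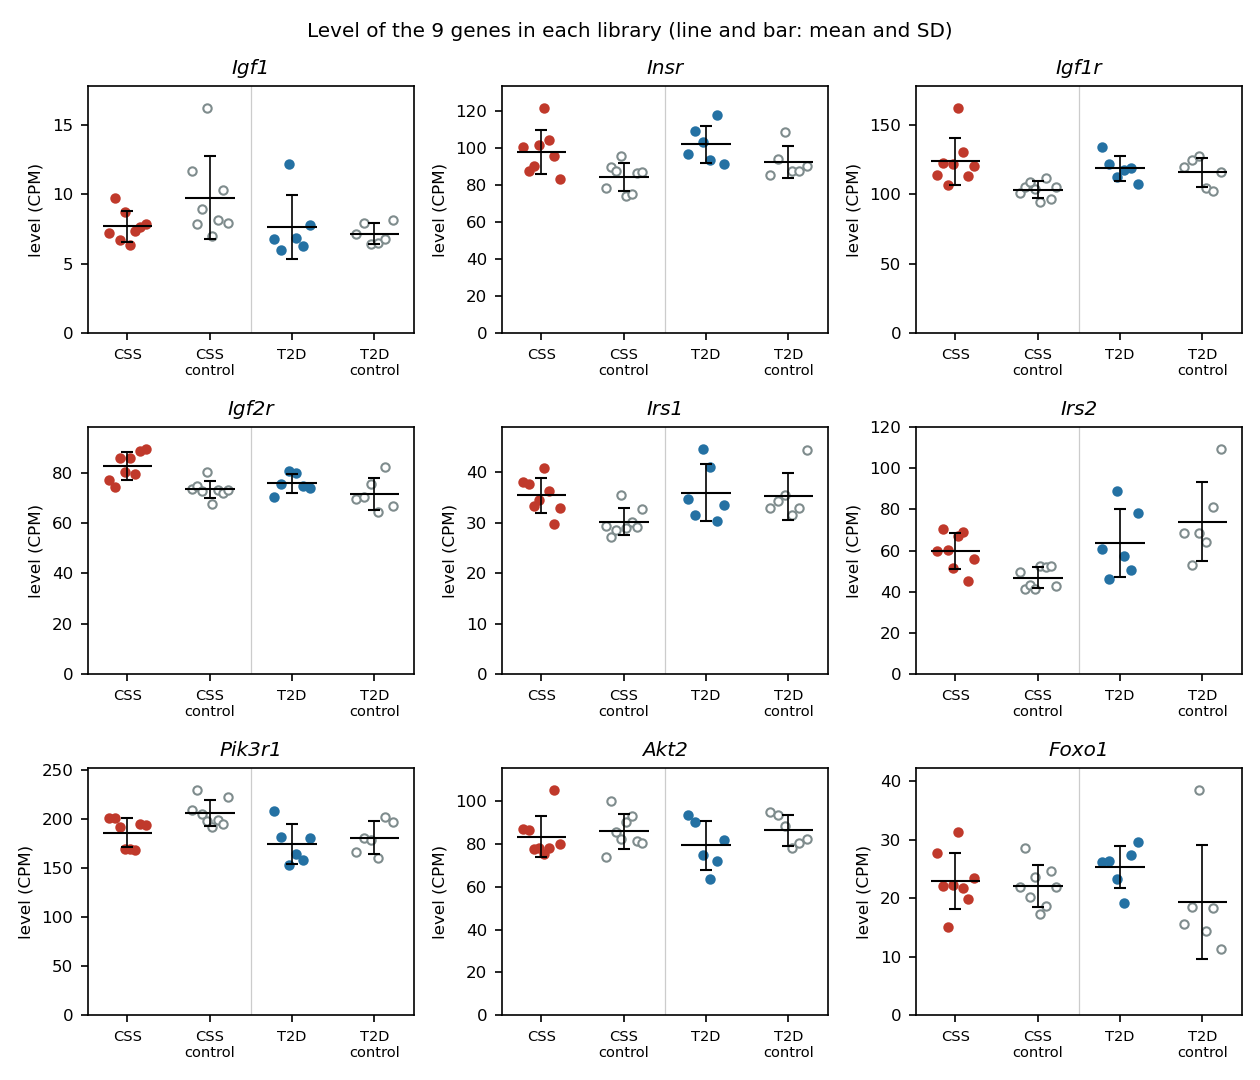
Each panel plots the level of 1 gene in CPM (counts per M counts of the library, vertical axis from 0) in every library of CSS, CSS_control, T2D and T2D_control, with filled points for treated and open points for control mice, a line at the mean and a bar of 1 SD. The CSS libraries of Irs2, Igf1r and Igf2r sit mostly above those of CSS_control, with 6, 7 and 5 of 8 above the highest control.

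The upstream sequences of the genes that rose in CSS, with that of Irs1 as the second adaptor, show which short motifs lie in front of them. The 250 bases before the transcription start are given on the strand of the gene, 5′ to 3′, from RefSeq on GRCm38.p6. These starts can differ from those of the GENCODE gene spans given below. The windows of Igf1r and Irs2 lie upstream of their spans with a gap between, and that of Igf1 lies inside its span. Capitals mark the E-box CACGTG, the GC box GGGCGG and TGTTTTG, the core of the insulin response element, searched on both strands.
Igf1r: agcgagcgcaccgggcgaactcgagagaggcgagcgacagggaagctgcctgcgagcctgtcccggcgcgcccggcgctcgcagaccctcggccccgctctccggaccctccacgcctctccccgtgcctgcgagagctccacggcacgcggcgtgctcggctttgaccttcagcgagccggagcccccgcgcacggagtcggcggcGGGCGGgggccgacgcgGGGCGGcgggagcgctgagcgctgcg
Igf2r: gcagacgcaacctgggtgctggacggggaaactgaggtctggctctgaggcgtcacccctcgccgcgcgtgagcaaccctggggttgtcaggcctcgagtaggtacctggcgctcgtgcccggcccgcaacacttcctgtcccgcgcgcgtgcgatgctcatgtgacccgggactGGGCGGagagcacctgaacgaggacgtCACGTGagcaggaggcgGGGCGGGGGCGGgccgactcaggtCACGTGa
Irs1: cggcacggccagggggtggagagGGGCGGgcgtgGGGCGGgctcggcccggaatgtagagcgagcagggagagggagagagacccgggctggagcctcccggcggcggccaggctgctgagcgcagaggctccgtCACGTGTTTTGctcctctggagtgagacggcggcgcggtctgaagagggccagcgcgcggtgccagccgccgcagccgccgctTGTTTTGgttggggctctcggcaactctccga
Irs2: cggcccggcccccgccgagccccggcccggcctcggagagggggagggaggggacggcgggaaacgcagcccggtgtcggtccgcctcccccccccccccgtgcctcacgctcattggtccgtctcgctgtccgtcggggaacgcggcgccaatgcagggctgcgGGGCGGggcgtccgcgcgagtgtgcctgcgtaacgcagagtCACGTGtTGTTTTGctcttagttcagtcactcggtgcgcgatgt
The Igf1r window lies at chr7:67952007-67952256 on the plus strand, that of Igf2r at chr17:12769707-12769956, that of Irs1 at chr1:82291440-82291689 and that of Irs2 at chr8:11008930-11009179, all 3 on the minus strand. Both adaptor genes carry an E-box directly joined to, or 1 base from, TGTTTTG: at position 136 of the Irs1 window the motifs overlap and share bases, and at position 207 of the Irs2 window they are parted by a single base. An E-box with TGTTTTG after it, overlapping or at most 10 bases away, was found in 9 of 32851 promoters, or 0.0274%, these included. That pattern holds both arrangements seen here, so its share is a description only. The promoters counted leave out 1 chromosome and include several start sites of some genes. By itself TGTTTTG was found in 5.56% of promoters and the E-box in 6.02%. Irs1 holds a further TGTTTTG at position 219, and Igf2r holds an E-box at positions 203 and 244. Igf1r has neither motif in this window and 2 GC boxes, a motif found in 32.7% of promoters, while Igf2r has 3, Irs1 has 2 and Irs2 has 1. The FOXO core GTAAACA, found in 3.17% of promoters, was in none of these 4 windows, nor in those of Igf1, Pik3r1, Akt2 and Foxo1. Only these exact letters were searched under that name, so their absence does not show that FOXO sites are lacking. Insr had no entry among the promoters. All 4 windows printed here are rich in CpG, with 42 in Igf1r, 27 in Igf2r, 28 in Irs1 and 34 in Irs2, against a median of 6 over the promoters counted. These traits were not particular to the genes that rose. Among genes that were not called, the first listed window of Pik3r1 held 30 CpG and 4 GC boxes and that of Foxo1 20 and 2. The first window of Akt2 held 10 CpG and 1 GC box, and that of Igf1 5 and 0. These matches describe letters and are not measured binding sites.

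Igf1 (ENSMUSG00000020053, chr10:87858265-87937042, plus strand, GRCm38) encodes the growth factor that activates the receptor product of Igf1r, and is made in liver and, in smaller amounts, within the brain. It had 6.35 CPM (counts per M counts of the library) in the lowest CSS library, 7.49 CPM in the median and 9.74 CPM in the highest, against 6.98, 8.55 and 16.2 CPM in CSS_control. All 8 CSS libraries lay below the control mean, which was drawn up by controls 4 and 1, and 2 of them lay below every control. The log2 change was -0.34 ± 0.15 (SE) and missed the threshold (edgeR adjusted p = 0.196). It was -0.20 without CSS_control 4 and -0.17 with the code number of the titles as a factor. In T2D it had 6.01, 6.82 and 12.2 CPM in the lowest, median and highest library, against 6.42, 6.97 and 8.17 CPM in T2D_control. Library T2D 3 stood far above the other diabetic mice, of which T2D 2 and T2D 5 lay below every control and the rest lay among them. The log2 change there was 0.10 ± 0.17 with an edgeR adjusted p of 0.941, -0.09 without that library and 0.20 with the RNA integrity score as a covariate. Markers of microglia, brain macrophages that are known to make Igf1, were also lower in CSS: 5 of 12 fell and 0 rose. Their summed levels were 196 to 386 CPM in CSS and 372 to 427 CPM in CSS_control, and no marker had a group mean of 0. In T2D, where the log2 change of Igf1 was 0.10, 12 of 12 had a negative log2 change (median -0.43, against -0.36 in CSS), none called by edgeR or DESeq2 and 4 with an unadjusted p under 0.05. Their summed levels were 189 to 365 CPM in T2D and 225 to 375 CPM in T2D_control. Within groups the microglial sum was, like Igf1, highest in T2D 3 and lowest in CSS 5, T2D 2 and T2D_control 3. Its other highest and lowest libraries were not those of Igf1. Summed inhibitory neuron markers were, like Igf1, highest in CSS_control 4 and T2D 3. They were also highest of their groups in CSS 5 and T2D_control 3, where Igf1 was lowest. The part of either cell type in the Igf1 values was not tested.

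Insr (ENSMUSG00000005534, chr8:3122061-3279617, minus strand) encodes the insulin receptor. In CSS it had 83.3 CPM in the lowest library, 98.3 CPM in the median and 122 CPM in the highest, against 74.3, 87.0 and 95.9 CPM in CSS_control. Of the 8 stressed mice 7 lay above the control mean and 4 above the highest control, with CSS 5 the highest and CSS 8 the lowest. The means were 98.2 ± 12 CPM in CSS and 84.4 ± 7.61 CPM in CSS_control (SD, n = 8 each), a difference past neither edgeR's threshold (adjusted p = 0.0853) nor that of DESeq2 (adjusted p = 0.0540). In T2D it had 91.6, 100.2 and 118 CPM in the lowest, median and highest library, against 85.8, 89.1 and 109 CPM in T2D_control. Of the 6 diabetic mice 5 lay above the control mean, and control 3 lay among the highest diabetic mice. The log2 change in T2D was 0.14 ± 0.08 (SE, edgeR adjusted p = 0.825), and 0.08 with the RNA integrity score as a covariate.

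Igf1r (ENSMUSG00000005533, chr7:67952827-68233668, plus strand, 21 exons in its longest transcript) encodes the IGF1 receptor, a close relative of the insulin receptor that can also pair with it in hybrid receptors. It had 106 CPM in the lowest CSS library, 121 CPM in the median and 162 CPM in the highest, against 94.1, 104 and 112 CPM in CSS_control. Every stressed mouse lay above the control mean and 7 of 8 lay above the highest control, with CSS 5 far above the rest. Igf1r rose by 0.26 ± 0.07 on the log2 scale (SE, edgeR adjusted p = 0.0378), with means of 124 ± 16.96 CPM in CSS and 103.1 ± 5.93 CPM in CSS_control (SD, n = 8 each). Without CSS 5 the change was 0.19. The call ended without CSS 4, 6 or 8 or CSS_control 1, 2, 3, 4, 5 or 7, with edgeR adjusted p of at most 0.0775 over the 16 fits that each left out 1 library. In T2D its level was 107, 118 and 134.1 CPM in the lowest, median and highest library, against 102.2, 118 and 127 CPM in T2D_control. The diabetic and control mice were interleaved, with a log2 change of 0.04 ± 0.07 (SE, edgeR adjusted p = 0.949).

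Igf2r (ENSMUSG00000023830, chr17:12682406-12769664, minus strand, 48 exons) encodes the cation-independent mannose 6-phosphate receptor, which has no kinase activity, clears IGF2 from the cell surface and carries enzymes to lysosomes. It had 74.4 CPM in the lowest CSS library, 83.0 CPM in the median and 89.2 CPM in the highest, against 67.4, 73.1 and 80.1 CPM in CSS_control. All 8 stressed mice lay above the control mean and 5 above the highest control. Igf2r rose by 0.17 ± 0.05 on the log2 scale (SE, edgeR adjusted p = 0.0466), with means of 82.6 ± 5.47 CPM in CSS and 73.3 ± 3.49 CPM in CSS_control (SD, n = 8 each). This was the rise nearest to the threshold: the call held only when CSS 1, CSS 2 or CSS_control 4 was the library left out and ended without any one of the other 13, with an edgeR adjusted p of up to 0.0919. It also ended with DESeq2 size factors in place of TMM (adjusted p = 0.0513) and with the RNA integrity score as a covariate (adjusted p = 0.0587). In T2D the level was 70.3, 75.2 and 80.5 CPM in the lowest, median and highest library, against 64.5, 69.9 and 82.2 CPM in T2D_control. Of the diabetic mice 5 of 6 lay above the control mean but none above the highest control, and the log2 change was 0.08 ± 0.07 (SE, edgeR adjusted p = 0.864). The antisense RNA Airn crosses the gene body on the other strand and shares 0 exon bases with it.

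Irs1 (ENSMUSG00000055980, chr1:82233101-82291416, minus strand) encodes one of the 2 main docking proteins of the receptors. It had 29.8 CPM in the lowest CSS library, 35.4 CPM in the median and 40.9 CPM in the highest, against 27.1, 29.3 and 35.5 CPM in CSS_control. Of these, 7 of 8 stressed mice lay above the control mean, and CSS 7 lay below it. The means of 35.4 ± 3.49 CPM in CSS and 30.2 ± 2.67 CPM in CSS_control (SD, n = 8 each) gave an edgeR adjusted p of 0.0574, while DESeq2 gave 0.0245. Without CSS 7 or without CSS_control 4 edgeR called the gene as well, with an adjusted p as low as 0.0330. In T2D it had 30.4, 34.1 and 44.5 CPM in the lowest, median and highest library, against 31.6, 33.5 and 44.3 CPM in T2D_control. A single library of each group, T2D 3 and control 6, was at 44 to 45 CPM beside lower values in most others, and the log2 change was 0.03 ± 0.11 (SE, edgeR adjusted p = 0.977). A share of 30.9% of the Irs1 exon bases overlaps Gm9747 on the opposite strand. Whether strand was used in counting is not given in the sources used here, so reads of that part cannot be assigned to either gene with certainty.

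Irs2 (ENSMUSG00000038894, chr8:10984681-11008458, minus strand) encodes the second main docking protein, which in liver is known to be raised in fasting and lowered by insulin. It had 45.3 CPM in the lowest CSS library, 60.0 CPM in the median and 70.4 CPM in the highest, against 41.2, 46.3 and 52.6 CPM in CSS_control. Of the 8 stressed mice 6 lay above the highest control, CSS 4 lay among the highest controls, and CSS 7 lay below the control mean. Irs2 rose by 0.36 ± 0.09 on the log2 scale (SE, edgeR adjusted p = 0.0287), with means of 59.9 ± 8.83 CPM in CSS and 46.8 ± 5.18 CPM in CSS_control (SD, n = 8 each). The call ended without CSS 5 or 6 or without CSS_control 2, 3 or 4, with an edgeR adjusted p of at most 0.0686 and a log2 change between 0.31 and 0.41 over the 16 fits. In T2D its level ran the other way without passing, with 46.1, 59.2 and 89.1 CPM in the lowest, median and highest library, against 53.1, 68.7 and 109 CPM in T2D_control. The spread between libraries was wide there, with T2D 3 and 6 above the control mean, the other 4 below it, and control 6 the highest of all. The log2 change was -0.22 ± 0.18 (SE, edgeR adjusted p = 0.867) and ranged between -0.34 without T2D 3 and -0.07 without control 6. With the RNA integrity score as a covariate it was -0.07.

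**Figure D2:**
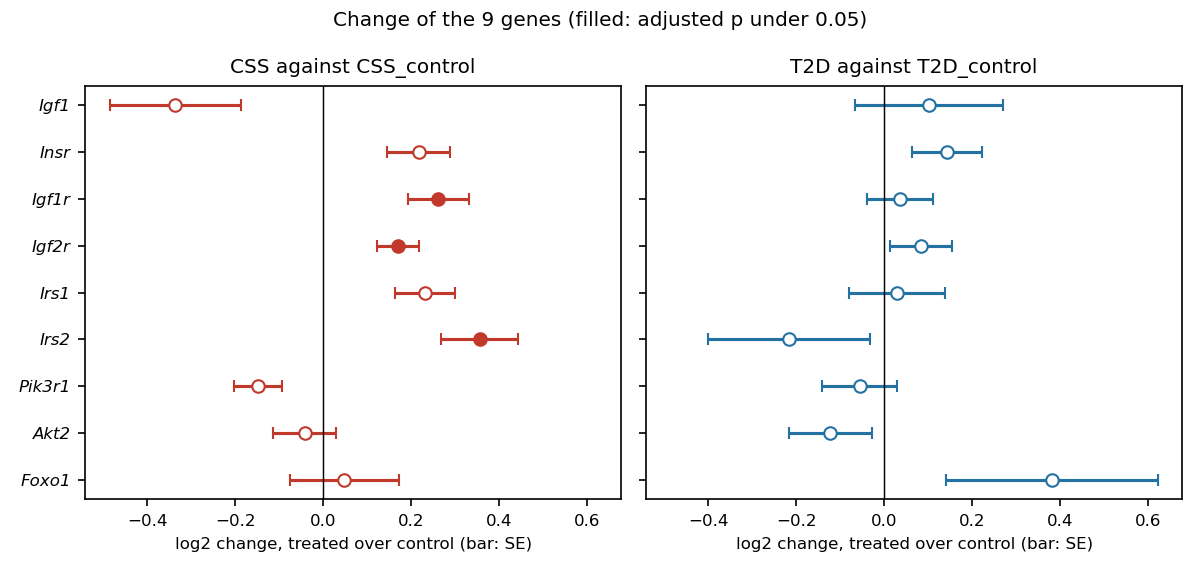
The horizontal axis gives the log2 change of each of the 9 genes, treated over control, with a bar of 1 standard error, in CSS against CSS_control (left) and T2D against T2D_control (right). Filled points, for Igf1r, Igf2r and Irs2 in CSS, had an adjusted p under 0.05, and no gene had one in T2D.

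Pik3r1 (ENSMUSG00000041417, chr13:101680563-101768217, minus strand) encodes the main regulatory subunits of PI3-kinase, which bind phosphorylated IRS proteins. It had 168 CPM in the lowest CSS library, 193 CPM in the median and 201 CPM in the highest, against 192, 202 and 229 CPM in CSS_control. All 8 stressed mice lay below the control mean, and 4 lay below the lowest control, of which CSS 4, 5 and 6 were close together at 168 to 169 CPM. The log2 change of -0.15 ± 0.05 (SE) did not pass, with an edgeR adjusted p of 0.117. In T2D it had 153, 172 and 208 CPM in the lowest, median and highest library, against 160.3, 179.9 and 202 CPM in T2D_control. Those groups were interleaved, with a log2 change of -0.06 ± 0.08 (SE, edgeR adjusted p = 0.935).

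Akt2 (ENSMUSG00000004056, chr7:27591552-27640826, plus strand) encodes the AKT kinase best known for insulin-driven glucose uptake in muscle and fat. Its CSS libraries had 75.1, 79.1 and 105 CPM at the lowest, median and highest, against 73.9, 83.9 and 100.2 CPM in CSS_control, with a log2 change of -0.04 ± 0.07 (SE, edgeR adjusted p = 0.776). CSS 7 was the highest of all 16 mice, CSS 1 and 2 lay just above the control mean, and the other 5 stressed mice lay below it. The T2D libraries had 63.4, 78.4 and 93.4 CPM, against 78.3, 85.4 and 95.1 CPM in T2D_control, with a log2 change of -0.12 ± 0.09 (SE, edgeR adjusted p = 0.854). Of the diabetic mice 3 of 6 lay below the lowest control.

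Foxo1 (ENSMUSG00000044167, chr3:52268336-52353221, plus strand) encodes the transcription factor that insulin signalling keeps out of the nucleus. In CSS it had 15.1, 22.2 and 31.3 CPM in the lowest, median and highest library, against 17.3, 21.9 and 28.5 CPM in CSS_control, with a log2 change of 0.05 ± 0.12 (SE, edgeR adjusted p = 0.857). Stressed mice held both the highest and the lowest value of that cohort. In T2D it had 19.2, 26.2 and 29.6 CPM, against 11.2, 16.9 and 38.4 CPM in T2D_control. All 6 diabetic mice lay above the control median and 5 of 6 above the control mean, yet control 3 lay above them all. The log2 change was 0.38 ± 0.24 (SE, edgeR adjusted p = 0.838), and 0.70 with an adjusted p of 0.418 without that control. With the RNA integrity score as a covariate the change was 0.20. Markers of striatal projection neurons, a cell type of the region below the frontal cortex, were read beside Foxo1 in that cohort. Their summed level over 8 of 8 markers was 183.9 to 1431 CPM in T2D, with a median of 1050 CPM. In T2D_control it was 228 to 1319 CPM, with a median of 580.1 CPM, and no marker had a group mean of 0. All 8 had a positive log2 change in T2D (median 0.56), none called by edgeR or DESeq2 and 0 with an unadjusted p under 0.05. Control 3 was highest and control 6 lowest in both the marker sum and Foxo1, and T2D 4 was the lowest diabetic mouse and T2D 6 the highest in both. No correlation of Foxo1 with these sums was computed, and the part of the striatal markers in the Foxo1 values was not tested.

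The direct question of whether stress and diabetes moved these genes differently was put to 1 model over all 28 libraries and the 14888 shared genes, as the CSS change minus the T2D change. None of the 9 genes passed in edgeR, 2 had an unadjusted p under 0.05, as did 12.4% of all shared genes, and DESeq2 called 0, where edgeR called 12 of all shared genes (0.0806%), 7 of them higher (0.047%) and 5 lower (0.0336%). The difference was largest for Irs2, at 0.56 ± 0.20 on the log2 scale (SE, edgeR adjusted p = 0.252). Igf1r followed with an unadjusted p under 0.05, at 0.22 ± 0.10 (SE, edgeR adjusted p = 0.386). For Igf1 it was -0.45 ± 0.23 with an adjusted p of 0.435, and for Foxo1 -0.34 ± 0.26 with an adjusted p of 0.630. The remaining 5 genes differed by -0.10 to 0.19, with edgeR adjusted p of 0.546 to 0.850. So the rises of Irs2, Igf1r and Igf2r in CSS were not shown to differ from their changes in T2D, in mice that were also older.

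**Figure D3:**
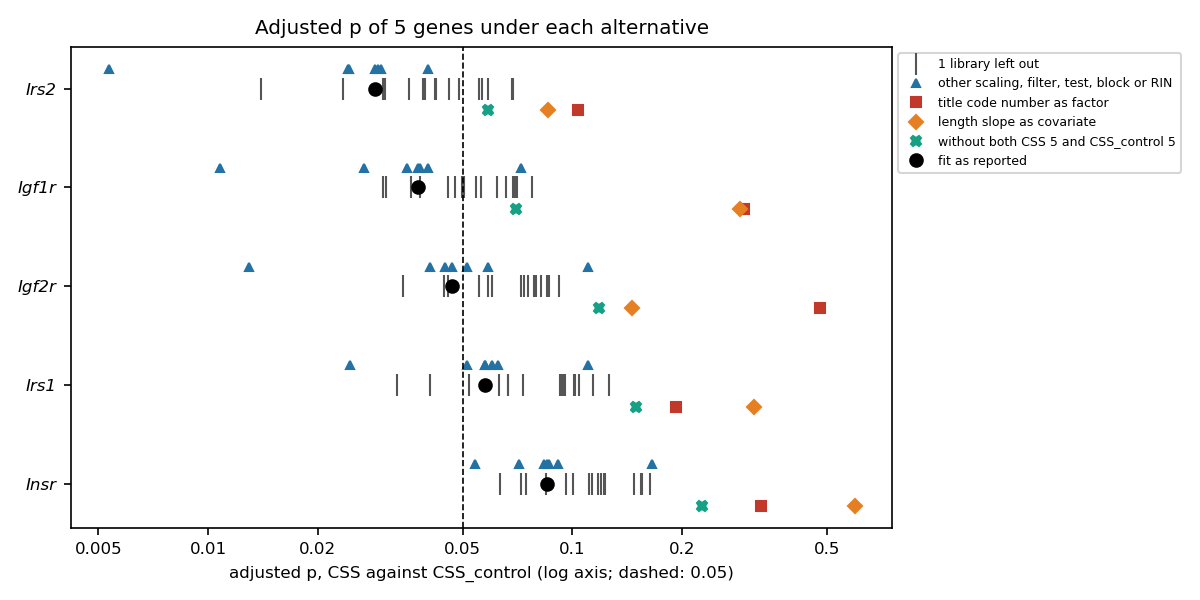
The horizontal log axis gives the adjusted p of Irs2, Igf1r, Igf2r, Irs1 and Insr in CSS against CSS_control, with a black point for the fit as reported, bars for fits without 1 library, triangles for other scaling, filters, tests, the replicate block or RNA integrity, and coloured symbols for 3 further alternatives. The fits of Irs2, Igf1r and Igf2r lie on both sides of the dashed line at 0.05, and the 3 coloured symbols lie above it for every gene.

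The titles of the CSS cohort carry a code with a C and a number, whose meaning the labels do not give, and the groups are uneven over it. Number 1 was carried by 1 stressed and 4 control mice, number 2 by 1 stressed and 3 control mice, number 3 by 3 stressed mice and 1 control, and number 4 by 3 stressed mice only. Within numbers 1, 2 and 3 the mean log2 level of Irs2 was higher in CSS by 0.45, 0.43 and 0.47. Igf1r was higher by 0.12, 0.29 and 0.28, and Igf2r by 0.04, 0.07 and 0.20. Insr was higher by 0.20, 0.16 and 0.25 and Irs1 by 0.34, 0.36 and 0.14, so all 5 had 1 direction within every number. Pik3r1 was lower at number 1 (-0.06) and number 3 (-0.33) and higher at number 2 (0.04), and Igf1 was likewise mixed. With the number as a factor in the fit, 0 of the 9 genes passed and 2 of all genes did, with edgeR adjusted p of 0.104 for Irs2, 0.295 for Igf1r and 0.479 for Igf2r and log2 changes of 0.45, 0.24 and 0.10.

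**Figure D4:**
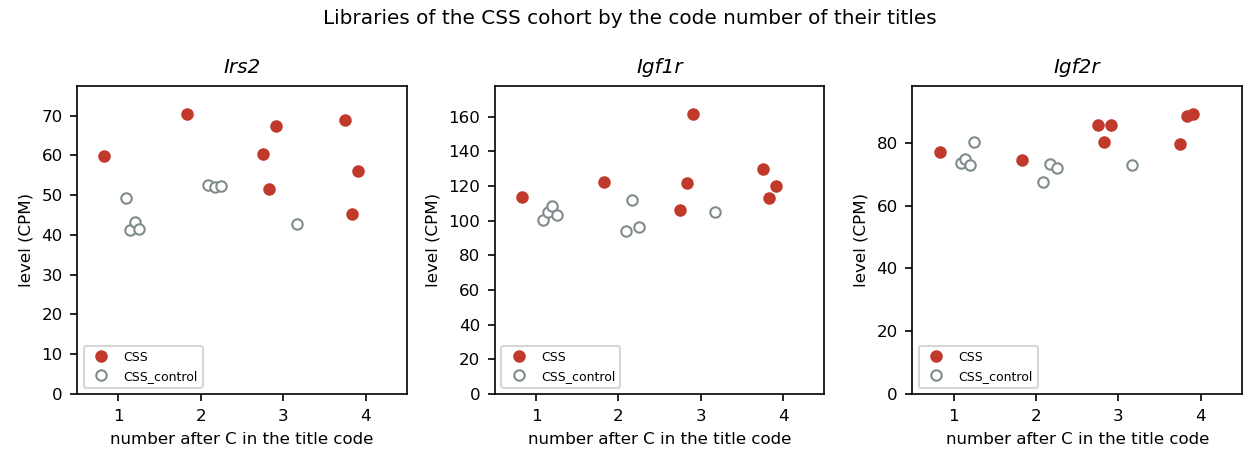
Levels in CPM (vertical axes from 0) of Irs2, Igf1r and Igf2r in CSS (filled) and CSS_control (open) libraries are plotted against the number after C in the title code. Within numbers 1 to 3 the mean of the CSS libraries was above that of the controls for all 3 genes, and number 4 holds stressed mice only.

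The 9 genes have long transcripts, of 4.54 kb for Akt2 to 11.4 kb for Igf1r, and the libraries differed in how level ran with transcript length. The slope of log2 level on log2 length lay between -0.0148 and 0.1379 in CSS and between -0.0842 and 0.0009 in CSS_control, with CSS 5 the highest and control 5 the lowest. Among the 1953 genes whose longest transcript had at least 6323 bases, the length of Irs2, the shortest of those that rose, 6.14% were called higher in CSS and 0.563% lower. Among the 13112 shorter genes 1.49% were called higher and 2.70% lower. With the slope as a covariate, log2 changes in CSS were 0.35 for Irs2 (adjusted p = 0.0858), 0.10 for Igf1r (adjusted p = 0.289), 0.15 for Igf2r (adjusted p = 0.146), 0.13 for Irs1 and 0.06 for Insr, all from edgeR. Without both CSS 5 and control 5, they were 0.36 for Irs2 (adjusted p = 0.0586), 0.18 for Igf1r (adjusted p = 0.0698) and 0.15 for Igf2r (adjusted p = 0.118). In the fit as reported the log2 changes of Irs2, Igf1r and Igf2r were 0.36, 0.26 and 0.17. None of these 3 genes passed under either alternative. The slope came from these same libraries, and both alternatives were chosen after seeing the data. The part of transcript length in these changes was not tested.

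Other cell type markers moved in the same cohort. Astrocyte markers summed to 4183 to 5033 CPM in CSS and 3763 to 4372 CPM in CSS_control, and 2 of 8 rose. Markers of oligodendrocyte precursors summed to 289 to 481 CPM in CSS and 278 to 346 CPM in CSS_control, with 1 of 6 that rose, and endothelial markers to 197 to 280 CPM in CSS and 205 to 245 CPM in CSS_control, with 2 of 10 that rose. Of the inhibitory neuron markers 2 of 8 fell, Npy and Sst, and the sums were 667 to 921 CPM in CSS and 739 to 946 CPM in CSS_control. Red blood cell markers had positive log2 changes in 5 of 5 (median 0.82, none called by edgeR, 3 by DESeq2), with sums of 133.2 to 575 CPM in CSS and 101.9 to 231 CPM in CSS_control. Striatal markers had negative changes in 8 of 8 (660 to 1071 CPM in CSS and 730 to 1447 CPM in CSS_control) and those of oligodendrocytes in 7 of 8 (2737 to 3715 CPM in CSS and 2984 to 3857 CPM in CSS_control), with none called by edgeR or DESeq2, and an unadjusted p under 0.05 in 1 and 3. Of the frontal cortex markers, the 8 for excitatory neurons were all present, at 1382 to 2225 CPM in CSS and 1370 to 1954 CPM in CSS_control. None of the markers in these lists had a group mean of 0. The part of these shifts in the changes of Irs2, Igf1r and Igf2r was not tested. Totals lay between 12.1 and 37.5 M counts per library, and no difference in total or RNA integrity between groups passed exact permutation tests in either cohort (4 two-sided tests, adjusted p of 0.900 to 0.996). Mean RNA integrity was 9.05 ± 0.23 in T2D and 9.37 ± 0.51 in T2D_control (SD, n = 6 each, unadjusted permutation p = 0.225). It was 9.625 ± 0.341 in CSS and 9.525 ± 0.225 in CSS_control (SD, n = 8 each, unadjusted permutation p = 0.548). These tests do not show that RNA integrity was alike.

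Per length of exon, Pik3r1 was the most abundant of the 9 genes in every group and Igf1 the least. In CSS the levels were 18.5 ± 1.47 CPM per kb for Pik3r1, 11.7 ± 1.37 for Akt2, 9.48 ± 1.40 for Irs2 and 8.87 ± 0.59 for Igf2r. Below them came 7.36 ± 1.01 CPM per kb for Igf1r, 7.14 ± 0.87 for Insr, 3.88 ± 0.38 for Irs1, 2.65 ± 0.56 for Foxo1 and 0.78 ± 0.11 for Igf1 (SD, n = 8). Pik3r1 stood clear of Akt2, and Insr clear of Irs1. Irs2, Igf2r, Igf1r and Insr overlapped with their neighbours and changed places between groups: in CSS_control Igf2r (7.88 ± 0.37) came before Irs2 (7.41 ± 0.82). With the longest transcript as the length, 5 of 9 genes kept their rank in CSS.

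The ratio of Irs2 to Irs1 counts, not corrected for length, was 1.49, 1.67 and 1.90 in the lowest, median and highest CSS library, against 1.17, 1.60 and 1.82 in CSS_control, and 1.40, 1.71 and 2.34 in T2D, against 1.55, 2.06 and 2.47 in T2D_control. The ratio of Igf1r to Insr had the median 1.22 in both CSS and CSS_control, and 1.14 in T2D, against 1.24 in T2D_control. These ratios overlapped between treated and control mice in both cohorts.

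The other genes of the pathway were read from 6 lists by role, of which 71 of 76 genes were in the CSS table. In CSS 4 of the 71 rose and 1 fell, where 2.11% of all genes rose and 2.42% fell. Of the 71 genes 22 had an unadjusted p under 0.05, against 21.5% of all genes. Their median log2 change was 0.05, against 0.01 over all genes. For the 9 genes the median was 0.17, with 6 positive and 3 negative. All of the 9 but Akt2 have a longest transcript of at least 6323 bases. Over all genes that long the median was 0.08 and 72.6% were positive, against -0.01 and 48.1% for shorter genes. Of 10 other ligands and IGF binding proteins edgeR called 0, 2 had an unadjusted p under 0.05, a share near that of all genes, and DESeq2 called 0. The smallest p among them was that of Igf2, a growth factor that Igf2r clears, at 24.7 ± 11.5 CPM in CSS and 15.2 ± 2.48 CPM in CSS_control (SD, n = 8 each, edgeR adjusted p = 0.108). Igf2 is also a marker of meningeal fibroblasts, whose 10 markers summed to 63.8 to 197 CPM in CSS and 64.2 to 127 CPM in CSS_control. These sums include Igf2 itself, so they rise and fall with it in part. All 10 markers had a positive log2 change in CSS (median 0.55), and edgeR called 1. The part of the meninges in the Igf2 values was not tested.

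Among 7 other receptors and partners 1 rose, Ptprf, a receptor phosphatase known to act on the insulin receptor, with 109.8 ± 11.9 CPM in CSS and 92.9 ± 8.42 CPM in CSS_control (log2 change 0.24 ± 0.07, edgeR adjusted p = 0.0489). Of 15 other adaptors edgeR called 0, 3 had an unadjusted p under 0.05, again near the share of all genes, and DESeq2 called 1, Ptpn11. This phosphatase that binds activated receptors had 174 ± 19.0 CPM in CSS and 208 ± 26.4 CPM in CSS_control (edgeR adjusted p = 0.0654). Among 12 PI3-kinase subunits and lipid phosphatases 1 fell, Pik3ip1, an inhibitor of the PI3-kinase catalytic subunit. It had 20.3 ± 2.28 CPM in CSS and 25.5 ± 2.89 CPM in CSS_control, was below the control mean in 8 of 8 stressed mice and changed by -0.33 ± 0.08 on the log2 scale (edgeR adjusted p = 0.0284).

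Of 19 kinases and partners from PDK1 to mTOR 2 rose, while the list had a median log2 change of -0.04. Eif4ebp2, a brain repressor of translation that mTOR switches off, had 29.1 ± 6.50 CPM in CSS and 20.0 ± 2.72 CPM in CSS_control, a log2 change of 0.55 ± 0.12 (edgeR adjusted p = 0.0181), and was above the control mean in 8 of 8 stressed mice. Rptor, the scaffold of the mTOR complex that acts on it, had 85.03 ± 8.38 CPM in CSS and 74.0 ± 3.92 CPM in CSS_control (log2 change 0.20 ± 0.06, edgeR adjusted p = 0.0497). DESeq2 alone also called Gsk3a and Rps6kb2, named here after their values were seen, with log2 changes of -0.17 ± 0.06 and -0.41 ± 0.12 and edgeR adjusted p of 0.0752 and 0.0574. Each was below the control mean in 8 of 8 stressed mice. Among 8 other FOXO factors and feedback genes 1 rose, Trib2, a pseudokinase that binds AKT, with 54.6 ± 8.67 CPM in CSS and 41.6 ± 6.05 CPM in CSS_control (log2 change 0.39 ± 0.10, edgeR adjusted p = 0.0331). These values are means ± SD over 8 mice a group and log2 changes ± SE.

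In CSS 2.11% of all genes rose and 2.42% fell. Of 19 measured FOXO target genes 0 rose and 2 fell there, with a median log2 change of 0.02. They were Pik3ip1, given above, and Fbxo32, a ubiquitin ligase known from muscle wasting, with 29.6 ± 2.98 CPM in CSS and 37.4 ± 6.88 CPM in CSS_control (log2 change -0.34 ± 0.10, edgeR adjusted p = 0.0481, below the control mean in 8 of 8). Leaving out 1 library at a time, the call of Eif4ebp2 held in all 16 fits, while those of Pik3ip1, Trib2, Fbxo32, Ptprf and Rptor ended in 4, 9, 11, 12 and 14 of them. With the title code number as a factor none of the 6 passed (edgeR adjusted p of 0.0672 to 0.376), and with the length slope Pik3ip1 did (adjusted p = 0.0130).

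In T2D none of the 71 pathway genes or 19 FOXO targets was called by edgeR or DESeq2. An unadjusted p under 0.05 was found for 7 and 1 of them, against 5.84% of all genes. Over the 71 genes the log2 change had a median of -0.01. The target with the smallest p was Gadd45a, a growth arrest gene, with 3.60 ± 0.68 CPM in T2D and 5.84 ± 1.55 CPM in T2D_control, below the control mean in 6 of 6 diabetic mice (SD, n = 6 each, log2 change -0.69 ± 0.19, edgeR adjusted p = 0.825). Of the kinases it was Rps6kb2, a kinase of the ribosomal protein S6, with 15.9 ± 1.62 CPM in T2D and 21.5 ± 3.75 CPM in T2D_control (log2 change -0.43 ± 0.12, edgeR adjusted p = 0.825, below the control mean in 6 of 6). In the other lists the smallest p was that of Pappa, a protease of IGF binding proteins (log2 change 0.78), Sorl1, a sorting receptor (-0.24), Cbl, a ubiquitin ligase (0.26), Pik3ca, a PI3-kinase catalytic subunit (-0.27), and Trib1, a pseudokinase (-0.48), with edgeR adjusted p of 0.825 to 0.836. In the contrast of the changes 0 of the 71 genes passed in edgeR or DESeq2, and 7 had an unadjusted p under 0.05, against 12.4% of all shared genes.

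**Figure D5:**
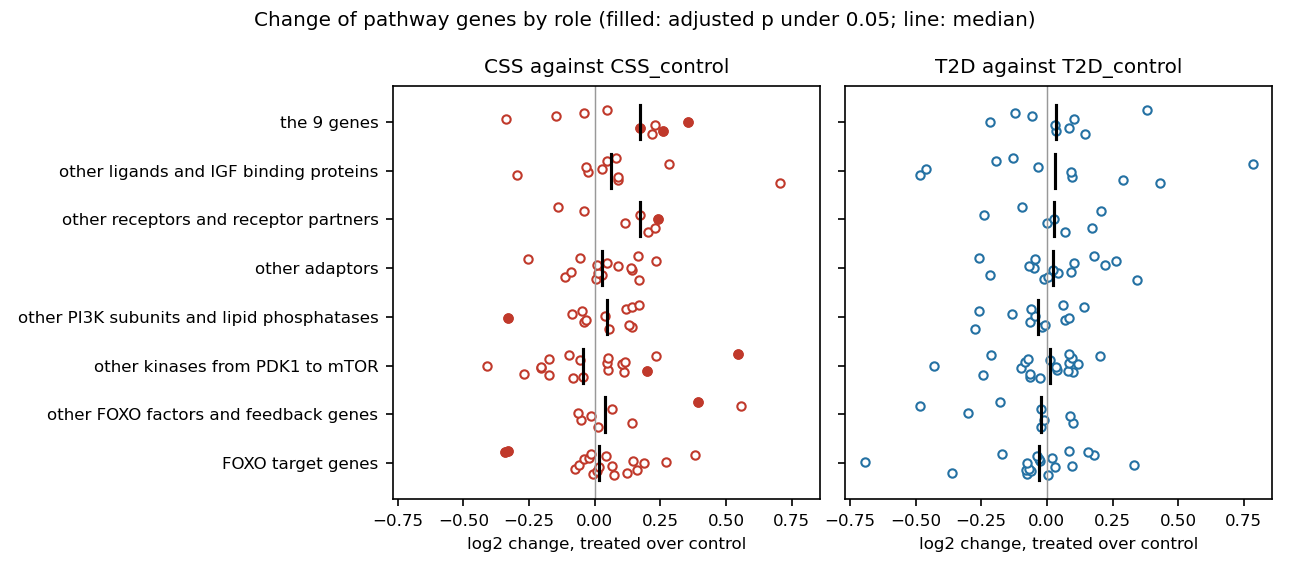
Each point gives the log2 change of 1 gene, treated over control, in CSS against CSS_control (left) and T2D against T2D_control (right), by role in the pathway, with a line at the median of each list. Filled points passed the threshold: 3 of the 9 genes, 5 of the other pathway genes and 2 FOXO targets in CSS (Pik3ip1 stands in both lists), and none in T2D.

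Over the 28 libraries, each centred on its group mean, the genes most like each of the 9 were sought among 11984 genes of at least 5 CPM. Irs2 was most like Nr4a3 and Dusp4 (Pearson r of 0.87 and 0.86), a nuclear receptor and a phosphatase of MAP kinases. Dusp4 rose in CSS by 0.75 on the log2 scale (edgeR adjusted p = 0.0370), and Nr4a3 had a change of 0.68 with an adjusted p of 0.0574. Foxo1 was most like Kcnk2 and Thsd7a (0.86 each), Igf1r like Wdfy3 and Cpeb2 (0.81 and 0.80), Insr like Svil and Kcnj10 (0.80 and 0.79), and Pik3r1 like App and Slc39a10 (0.79 and 0.78). The nearest genes to Igf1 were Lgr5 and Lyn (0.77 and 0.74), to Akt2 Mprip and Kcns2 (0.76 each), to Irs1 Iqsec3 and Phf2 (0.75 and 0.70) and to Igf2r Lrig1 and Zeb1 (0.74 and 0.71). Between the 9 genes themselves the highest values were 0.59 for Insr and Foxo1, 0.58 for Irs1 and Irs2 and 0.52 for Insr and Igf1r. The points of such a value share library, depth and dissection, so they are given as a description.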

How the data were processed

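Per the labels' protocols, RNA integrity was scored, ribosomal RNA was depleted with Ribo-Zero Gold and libraries were made with a stranded total RNA kit. For each cohort the authors deposited estimated counts of every listed gene, made with Salmon 1.1.0 among other tools on mm10, per the submitters' processing notes. The summing of transcripts to genes, any use of strand and the filter on low genes are not stated in the sources used here. Every gene reached at least 1.01 CPM in 8 libraries of the CSS table or 6 of the T2D table.

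Values were rounded to whole numbers. Each cohort was tested alone in R 4.3.3 with edgeR 4.0.16 (default filter, TMM, robust quasi-likelihood test), with p-values adjusted by Benjamini-Hochberg over every gene tested and called under 0.05. All single-gene p-values are from this test unless DESeq2 1.42.0 is named. The code was tested on simulated data. Levels are TMM-scaled counts per M counts of the library (CPM). Alternatives were other scaling, filters and tests, blocks, covariates and leaving out libraries. Coordinates and lengths came from GENCODE M21 on GRCm38, which held 99.8% of the identifiers, and 8 of the 9 genes matched the RefSeq promoter table. Plots were made in Python 3.11.15 (matplotlib 3.10.9).

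The 9 genes and all gene lists were chosen with earlier results of these data known. Named were all 9 genes, each list gene past the threshold (at most the 4 of smallest p per list and comparison), the gene of smallest p of lists with none past the threshold in CSS or T2D (none in the contrast), and the 2 genes most like each of the 9.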

Additional observations from a re-analysis of the deposited data

Results flagged for a closer look

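In 6 of 36 gene and group pairs a single library stood apart from the rest of its group by a gap that is large for the group's range, which chance alone gives in about 1 in 20 groups. In the CSS cohort these were Igf1r in CSS 5, at 162 CPM, and Akt2 in CSS 7, at 105 CPM. Among the diabetic mice it was Igf1 in T2D 3, at 12.2 CPM. Among their controls Insr (109 CPM) and Foxo1 (38.4 CPM) were both high in T2D_control 3, and Irs1 was high in T2D_control 6, at 44.3 CPM. CSS 5 also had the highest length slope of the CSS cohort (0.1379), and T2D_control 3 the highest sum of striatal markers among its group (1319 CPM). The part of these in the single values was not tested.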

How the results depend on the processing

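In CSS, 683 genes were called: 1280 by DESeq2, 2 with the title code number as a factor, 370 with the length slope, 232 without both CSS 5 and CSS_control 5, and 222 to 794 with 1 library left out. The 3 of 9 genes called became 1 with the replicate block, 0 with the code number, 0 with the slope, 0 without those 2 libraries, and 0 to 3 with 1 left out (0 without CSS 6, among others). In T2D DESeq2 called 4 genes and all fits with 1 library left out called 0. In the contrast, 12 genes became 23 with the stricter filter, 112 by DESeq2, 0 without robust fitting, 32 with the block, 0 with RIN, 81 with the slope, 0 without CSS 5 and CSS_control 5, and 0 to 32 with 1 left out. Directions reversed for uncalled genes only: in CSS Akt2 (0.0188 with the slope) and Foxo1 (-0.21 with the slope, -0.074 without CSS 5 and CSS_control 5, -0.0344 to 0.118 with 1 left out), in the contrast Insr (-0.0008 with the slope, -0.0067 without those libraries), and in T2D with 1 library left out Igf1r (-0.0027 to 0.066), Irs1 (-0.043 to 0.107), Igf1 (-0.0856 to 0.162) and Ptprf (-0.016 to 0.0649). The cause of these shifts was not tested. The slope covariate and leaving out CSS 5 and CSS_control 5 together were chosen after seeing the data. Same-numbered libraries deviated with r of -0.168 to 0.339 in the CSS cohort and -0.022 to 0.142 in the T2D cohort. Of them 2 of 8 and 0 of 6 correlated best with their own number. Such values cannot show whether replicate numbers pair the mice. With the block Irs2 passed (edgeR adjusted p = 0.0402) while Igf1r (0.0722) and Igf2r (0.110) did not. With 8 or 6 mice a group, small changes can be missed, and a p that misses the threshold does not show that levels were alike.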
